A study of Rattus norvegicus with 12 samples.

Results

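The genes described here code for the subunits of the neuronal nicotinic acetylcholine receptors (nAChRs). They were chosen by name, as the 10 genes Chrna2, Chrna3, Chrna4, Chrna5, Chrna6, Chrna7, Chrna9, Chrnb2, Chrnb3 and Chrnb4 of 21885 gene names on the array, and not by their signal. Each was read by 1 probe with 1 spot per array. Gene expression was measured on 12 one-colour arrays. The RNA came from cerebellar cultures enriched for neurons, which were made from Sprague-Dawley rats 1 day old. The 6 control cultures received the solvent alone (DMSO, 0.001%). The 6 ACE cultures received 1 µM acetamiprid (ACE), a neonicotinoid insecticide, in the same solvent from day 2 to day 16 in vitro. In both groups the cells were kept in 1% serum for 8 days and then without serum, with part of the medium replaced every 2 days. Control and ACE cultures with the same replicate number came from 1 lot of cells, prepared from the pooled neonates of a litter, and are called a pair. The cultures hold several cell types, so that fewer cells of a type and less RNA per cell cannot be told apart.

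Nicotinic receptors are cation channels opened by acetylcholine, each made of a ring of subunits. The alpha subunits Chrna2, Chrna3, Chrna4 and Chrna6 form the agonist site together with the beta subunits Chrnb2 or Chrnb4, whereas Chrna5 and Chrnb3 take the accessory place in the ring. Chrna7 and Chrna9 can form receptors without a beta subunit. Receptors of Chrna4 with Chrnb2 and receptors of Chrna7 are the common types of the brain, and receptors of Chrna3 with Chrnb4 are those of autonomic ganglia and the medial habenula. Neonicotinoids are agonists of insect nicotinic receptors and bind the mammalian ones less tightly. The comparison of control with ACE asked whether exposure of developing cerebellar cells was followed by a different level of the transcripts of the receptor itself.

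The probe of Chrnb4, on which most of the results turn, and those of Chrna3, Chrna4 and Chrna7, which the study also measured by quantitative PCR, are shown to make clear which part of each transcript was read. They are 60 bases long, written 5′ to 3′ in the sense of the transcript as given in the array files, and each reads as coding sequence of its subunit. The capitals mark the stop codon that ends the Chrna7 probe, and the other probes have no letters set apart.
Chrnb4: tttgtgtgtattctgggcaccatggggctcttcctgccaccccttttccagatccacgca
Chrna3: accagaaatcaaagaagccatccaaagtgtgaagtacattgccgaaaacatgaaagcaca
Chrna4: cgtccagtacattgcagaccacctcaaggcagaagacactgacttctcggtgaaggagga
Chrna7: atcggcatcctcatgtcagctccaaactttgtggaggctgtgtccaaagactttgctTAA
In the rn4 build, the Chrnb4 probe lies on the minus strand at chr8:58586979-58587038 and the Chrna3 probe on the same strand at chr8:58572596-58572655. The Chrna5 probe, on the plus strand, ends 20876 bases before the Chrnb4 probe and 6493 bases before the Chrna3 probe in genome order, so that the 3 genes form a cluster. The Chrna7 probe lies on the minus strand at chr1:117587580-117587639. The Chrna4 probe, also on the minus strand, covers chr3:170171576-170174943, that is, its 60 bases are spread over 3368 bases of the genome and cross at least 1 intron. The probes of Chrna6 and Chrnb3 lie 10198 bases apart on chromosome 16. The longest run of bases that the Chrnb4 probe shares with another subunit probe is 6, and for Chrna3 and Chrna4 it is 10.

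Chrnb4 was the only subunit whose probe was well above background on all 12 arrays, that is, brighter than the local background by the margin that the scanner software sets. Over all gene probes, this held for 66.4%. Chrna5 was well above background on 11 arrays (5 control, 6 ACE), Chrna4 on 10 (4 control, 6 ACE) and Chrna7 on 7 (4 control, 3 ACE). Chrna3 was above it on 5 arrays, and Chrna9 and Chrnb2 on 4 each. Chrna6 passed on 2 control arrays and 0 ACE arrays, Chrna2 on 1 control array and Chrnb3 on 1 ACE array. Signals between probes are not comparable, so these counts describe detection and not which subunit was the most abundant.

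**Figure D1:**
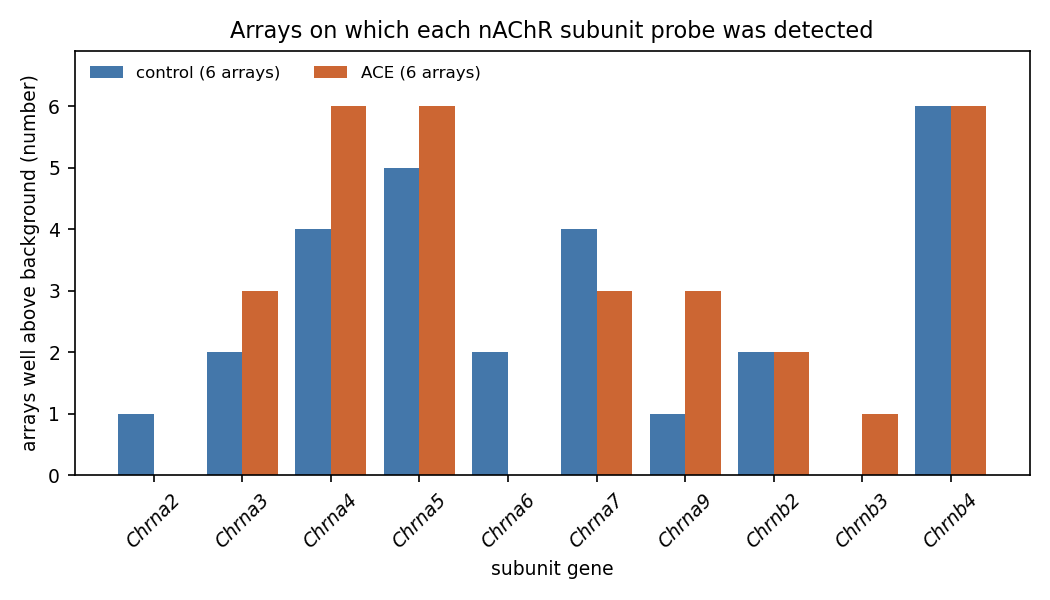
Number of arrays (vertical axis, out of 6 per group) on which the probe of each nAChR subunit (horizontal axis) was well above background in control and ACE cultures. Chrnb4 reached 6 arrays in both groups, Chrna4 and Chrna5 reached 6 in ACE alone, and Chrna2, Chrna6 and Chrnb3 were detected on 2 arrays or fewer.

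The detection of subunits differed between arrays of unequal brightness. The 2 arrays of replicate 1, which had the highest share of gene spots above background (91.0% in control and 90.4% in ACE), detected 9 and 8 of the 10 subunits. The control array of replicate 4, with 75.9% of its spots above background, detected 1, which was Chrnb4. The ACE array of replicate 6, with the lowest share (75.4%), detected 3. The arrays of replicates 4, 5 and 6 detected 1 to 5 subunits and those of replicates 2 and 3 detected 5 or 6. Replicate 1 was also the one read with another version of the scanner software. The part of brightness and software in the detection counts was not tested.

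As a comparison of detection within the same arrays, 8 of 19 subunit genes of the GABA-A receptor, the main inhibitory receptor of the brain, were well above background on all 12 arrays. Among them were Gabra6, which granule cells express, and Gabrd. Of the 5 subunits of the muscle nicotinic receptor, 3 were well above background on all 12 arrays (Chrna1, Chrnb1 and Chrng). Marker genes of cerebellar neurons were detected: the granule cell markers were above background on all 12 arrays for 7 of 7 genes, the Purkinje cell markers for 6 of 6, and the pan-neuronal markers for 4 of the 5 on the array. Glial genes were also detected, with 5 of 5 astrocyte, 6 of 6 oligodendrocyte and 5 of 5 microglia genes above background on all 12 arrays.

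Chrnb4 was lower in ACE than in control in 6 of 6 pairs. Its normalised log2 signal was 9.10, 9.37 and 9.49 (lowest, median, highest) in control and 8.97, 9.14 and 9.45 in ACE. The groups overlapped: replicate 1 was the highest array in both, and the pair of replicate 3 was the lowest in control and near the lowest in ACE. The mean was 9.35 ± 0.15 (SD, n = 6) in control and 9.15 ± 0.18 (SD, n = 6) in ACE. The difference between ACE and control was -0.20 log2, with a 95% interval of -0.33 to -0.07, or 0.872 times the control level (0.796 to 0.956). The interval lay within the 1.5-fold change that the study required of a regulated gene. The SD of the 6 pair differences was 0.14, close to the median of 0.108 for the tested probes that were well above background on all 12 arrays. The adjusted p of Chrnb4 was 0.193 by limma, so the difference was not past the threshold of 0.05. Its unadjusted limma p was 0.0101, and its exact two-sided signed-rank p was 0.031, the smallest that 6 pairs can give.

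The Chrnb4 difference was not even over the pairs. It was -0.33, -0.36 and -0.28 in replicates 4, 5 and 6, whose arrays were scanned together, and -0.04, -0.07 and -0.10 in replicates 1, 2 and 3, each scanned on its own. The 3 pairs scanned together alone gave -0.32 (95% interval -0.44 to -0.21, adjusted limma p of 0.337), over 1.5 times the value from all 6 pairs. The 2 sets of pairs did not overlap, but whether the difference depended on the scan was not tested. On all 6 slides the control RNA occupied place 1 and the ACE RNA place 3, so that place and exposure cannot be told apart for any gene.

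**Figure D2:**
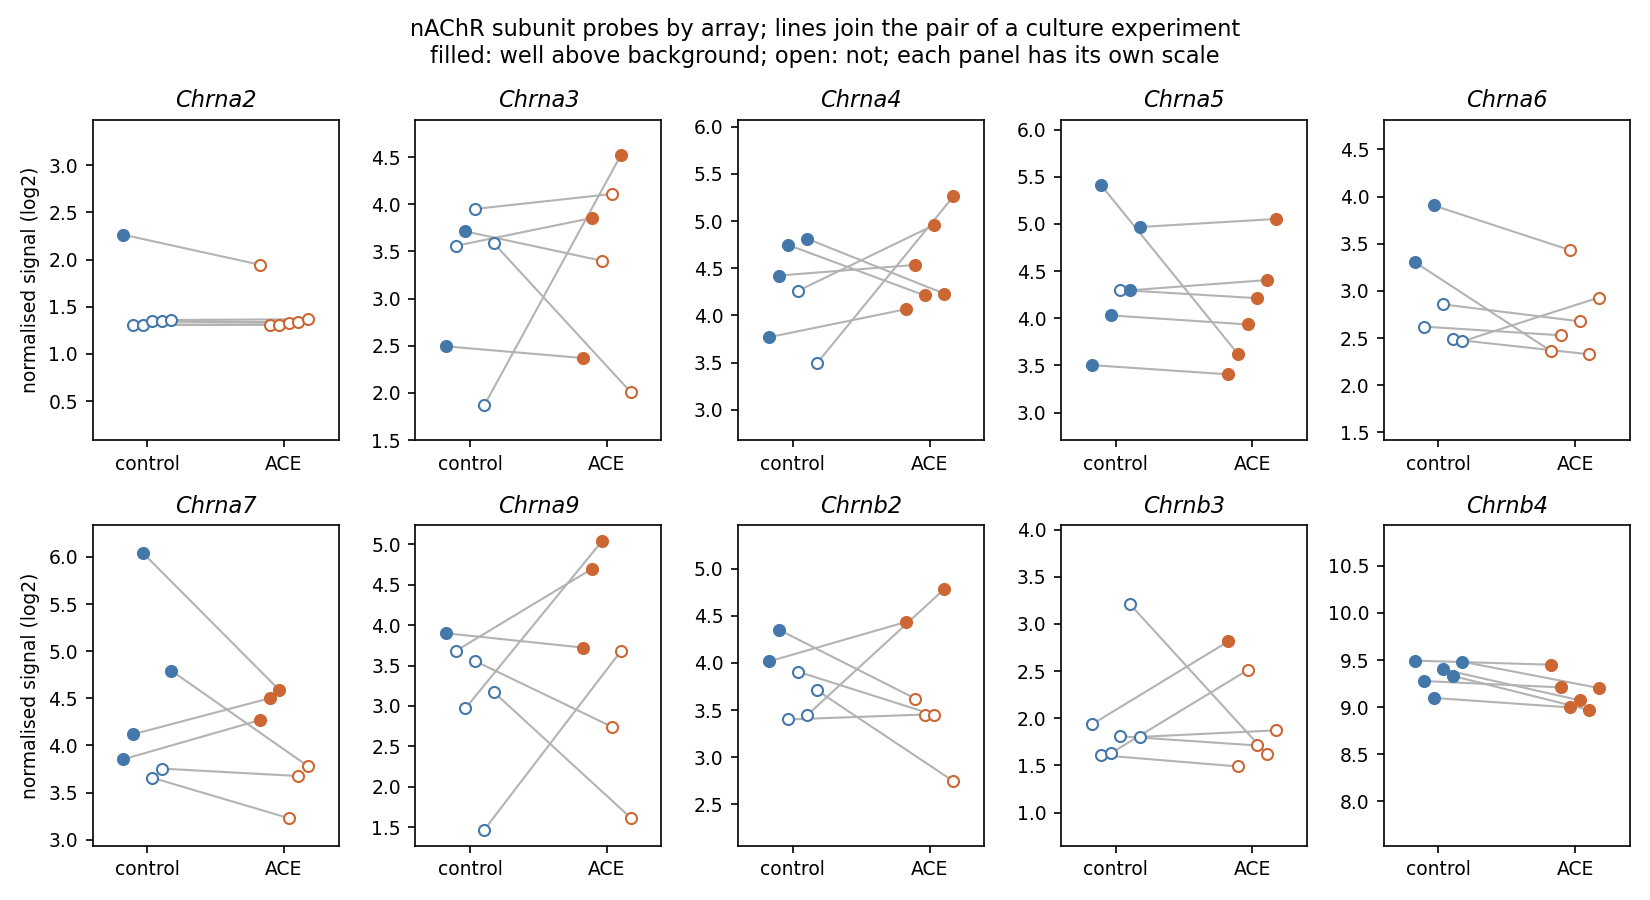
Normalised log2 signal (vertical axis, each panel with its own range of the same or greater height) of the 10 nAChR subunit probes on the 6 control and 6 ACE arrays, with lines joining the arrays of a pair, filled points for signals well above background and open points for those not. Chrnb4 is the panel in which all 12 points are filled and all 6 lines slope down, while the lines of most dim subunits cross.

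Of the 10 subunits, 7 passed the filter on low values and were tested: Chrna3, Chrna4, Chrna5, Chrna7, Chrna9, Chrnb2 and Chrnb4. None of the 7 (0) was past the adjusted limma threshold, as over all probes, where 0 of 23796 (0%) passed. At an unadjusted limma p under 0.05 there was 1 of the 7, Chrnb4, beside 16.6% of all tested probes. Likewise 1 of the 7, again Chrnb4, had the same direction in all 6 pairs, beside 11.6% of all probes, and 6.86% of all probes were lower in ACE in all 6 pairs. Of the 7 differences, 3 were above 0 and 4 below, with a median of -0.06 log2, and the median over all tested probes was -0.00499.

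Chrna4, the alpha subunit of the most common brain receptor, was 3.49, 4.34 and 4.81 in control (lowest, median, highest) and 4.07, 4.38 and 5.26 in ACE. The groups overlapped over most of their range, and ACE was higher in 4 of 6 pairs. The difference was 0.29 log2 (95% interval -0.46 to 1.05, adjusted limma p of 0.659). In replicate 6 the pair differed by 1.77, from the lowest control array, which was not above background, to the highest ACE array. Without that replicate the difference was -0.00135. Its partner Chrnb2 was 3.40, 3.81 and 4.35 in control and 2.75, 3.54 and 4.78 in ACE, the ACE arrays reaching both lower and higher than the control arrays. ACE was higher in 3 of 6 pairs, with a difference of -0.06 (95% interval -0.79 to 0.67, adjusted limma p of 0.937).

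Chrna7, which forms receptors of high calcium permeability, was 3.66, 3.99 and 6.05 in control and 3.23, 4.03 and 4.59 in ACE. A single control array, that of replicate 3, stood above all the others, and its pair had the most negative difference (-1.46). ACE was lower in 4 of 6 pairs. The difference was -0.36 log2 (95% interval -1.02 to 0.29, adjusted limma p of 0.526), and -0.14 without replicate 3. Chrna7 was lower in ACE in the 3 pairs scanned together, by 0.08 to 1.01 log2, but 5 of those 6 arrays were not above background.

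Chrna3 and Chrna5, the neighbours of Chrnb4 in the gene cluster, did not show its pattern of 1 direction in all pairs. Chrna3 was 1.87, 3.57 and 3.95 in control and 2.01, 3.63 and 4.52 in ACE, higher in 3 of 6 pairs. Its pair differences ran from -1.58 in replicate 6 to 2.65 in replicate 5, in which the control array was the dimmest of all 12 for this probe. The difference was 0.18 (95% interval -1.01 to 1.37, adjusted limma p of 0.874), and -0.31 without replicate 5. Chrna5 was 3.50, 4.30 and 5.41 in control and 3.40, 4.07 and 5.05 in ACE. In 5 pairs the Chrna5 arrays differed by at most 0.11 log2, and in replicate 2 ACE was lower by 1.79. The difference over all pairs was -0.31 (95% interval -0.94 to 0.32, adjusted limma p of 0.569), and -0.02 without replicate 2.

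Chrna9, known for its role in cochlear hair cells, was 1.47, 3.36 and 3.90 in control and 1.62, 3.70 and 5.04 in ACE. The groups overlapped, and 3 pairs were higher and 3 lower in ACE. The difference was 0.46 (95% interval -0.88 to 1.80, adjusted limma p of 0.697), and both arrays of a pair were above background in replicate 1 alone. It was 0.11 without replicate 5, 0.14 without replicate 3, 0.71 without replicate 4 and 0.86 without replicate 6.

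**Figure D3:**
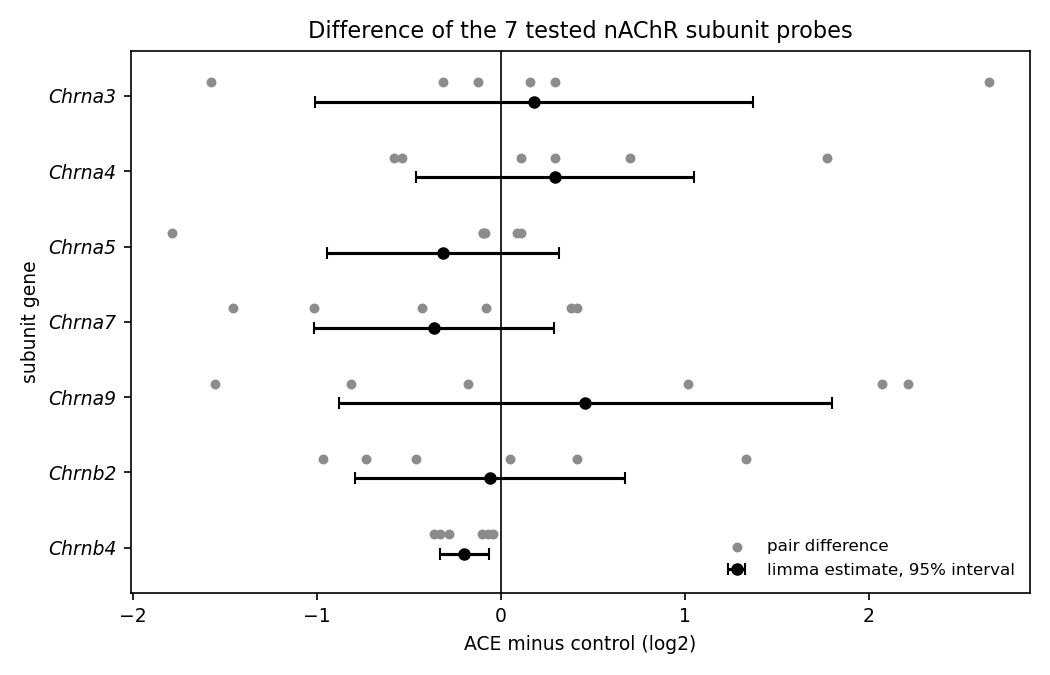
Difference between ACE and control (horizontal axis, log2) for the 7 tested nAChR subunit probes, with grey points for the 6 pairs and black points with bars for the limma estimate and its 95% interval. The Chrnb4 interval runs from -0.33 to -0.07, whereas the other 6 intervals include 0 and are several times wider.

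The dim probes also gave the less precise comparisons. The SD of the pair differences was 0.73 to 1.55 for the 6 tested subunits other than Chrnb4, against a median of 0.454 for the 3632 tested probes that were not well above background on all 12 arrays. Both arrays of a pair were well above background in 5 pairs for Chrna5, 4 for Chrna4, 3 for Chrna7 and 1 each for Chrna3, Chrna9 and Chrnb2. For the latter 4 subunits at most 3 of 6 pairs were thus measured above background on both sides, and no limit on a fold change of the transcript is drawn from their intervals.

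For Chrna5 the interval was 0.521 to 1.25 times the control level, and for Chrna4 it was 0.726 to 2.07 times. These limits rested on single pairs: without replicate 2 the Chrna5 interval was -0.14 to 0.10 log2, and without replicate 6 the Chrna4 interval was -0.53 to 0.52. They also rested on the background correction. With the normexp background, whose added offset shrinks differences between dim signals, the intervals were -0.31 to 0.10 for Chrna5 and -0.15 to 0.25 for Chrna4. An interval that includes 0 does not show that the levels were alike.

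The other 3 subunits did not pass the filter and were not tested. Chrna6, a subunit of dopaminergic and visual pathway neurons, was 2.47, 2.74 and 3.91 in control and 2.33, 2.60 and 3.43 in ACE, lower in 5 of 6 pairs. Chrna2 was 1.31, 1.35 and 2.26 in control and 1.31, 1.33 and 1.95 in ACE, and Chrnb3 was 1.61, 1.81 and 3.21 in control and 1.49, 1.79 and 2.82 in ACE. The groups overlapped for all 3, and both arrays of a pair were above background in 0 of 6 pairs for each of them. No fold is given for these subunits, since nearly all of their arrays were not well above background.

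Receptor subunits are folded, assembled and carried to the membrane with the help of other proteins, and some are held back or modulated there by small proteins of the Ly6 family. A list of 19 genes held such accessory genes and Chrna10, a further subunit that pairs with Chrna9. Of these, 17 were on the array with 19 probes, all of which passed the filter. Lypd6 and Psca had no probe of that name. No probe of the list (0) was past the adjusted limma threshold, and 3 (of Lypd6b, Ly6h and Dlg4) had an unadjusted limma p under 0.05, beside 16.6% of all probes. The median difference over the 19 probes was 0.02 log2. Of the 19 probes, 15 were well above background on all 12 arrays. Chrna10 was not among the 15: it was above background on 3 arrays and differed by 0.37 log2 (95% interval -0.17 to 0.91, adjusted limma p of 0.446).

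Dlg4, the postsynaptic scaffold protein PSD-95, was 5.81, 6.08 and 6.39 in control and 6.08, 6.36 and 6.91 in ACE. The groups overlapped, but ACE was higher in 6 of 6 pairs. The difference was 0.33 log2 (95% interval 0.15 to 0.50, adjusted limma p of 0.156). One probe of Lypd6b, a Ly6 protein that modulates nAChR currents, was 5.17, 5.51 and 5.81 in control and 4.58, 4.88 and 5.68 in ACE. It was lower in ACE in 6 of 6 pairs, by -0.44 log2 (95% interval -0.63 to -0.24, adjusted limma p of 0.143). The other Lypd6b probe did not show this: it was higher in 3 of 6 pairs, with a difference of 0.09 (95% interval -0.10 to 0.28). A probe of Ly6h, a Ly6 protein that limits receptors of Chrna7 at the cell surface, differed by 0.11 (95% interval 0.00158 to 0.21, adjusted limma p of 0.296), and its other probe by 0.03.

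The chaperones that Chrna7 receptors depend on gave no called difference. Ric3 was 3.41, 3.66 and 4.36 in control and 3.19, 4.21 and 4.57 in ACE. It was above background on 5 arrays, higher in ACE in 5 of 6 pairs, and differed by 0.28 log2 (95% interval -0.08 to 0.65, adjusted limma p of 0.393), and by 0.16 without replicate 2. Tmem35, now named Tmem35a and known as NACHO, was above background on all 12 arrays. It was 8.02, 8.92 and 9.38 in control and 8.06, 8.95 and 9.25 in ACE, with a difference of 0.03 (95% interval -0.10 to 0.15), and of -0.0127 without replicate 2. Lynx1, a Ly6 protein that damps nicotinic responses, was 5.88, 6.49 and 7.62 in control and 5.81, 6.40 and 7.45 in ACE, with a difference of -0.09 (95% interval -0.66 to 0.47), and of 0.13 without replicate 5.

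**Figure D4:**
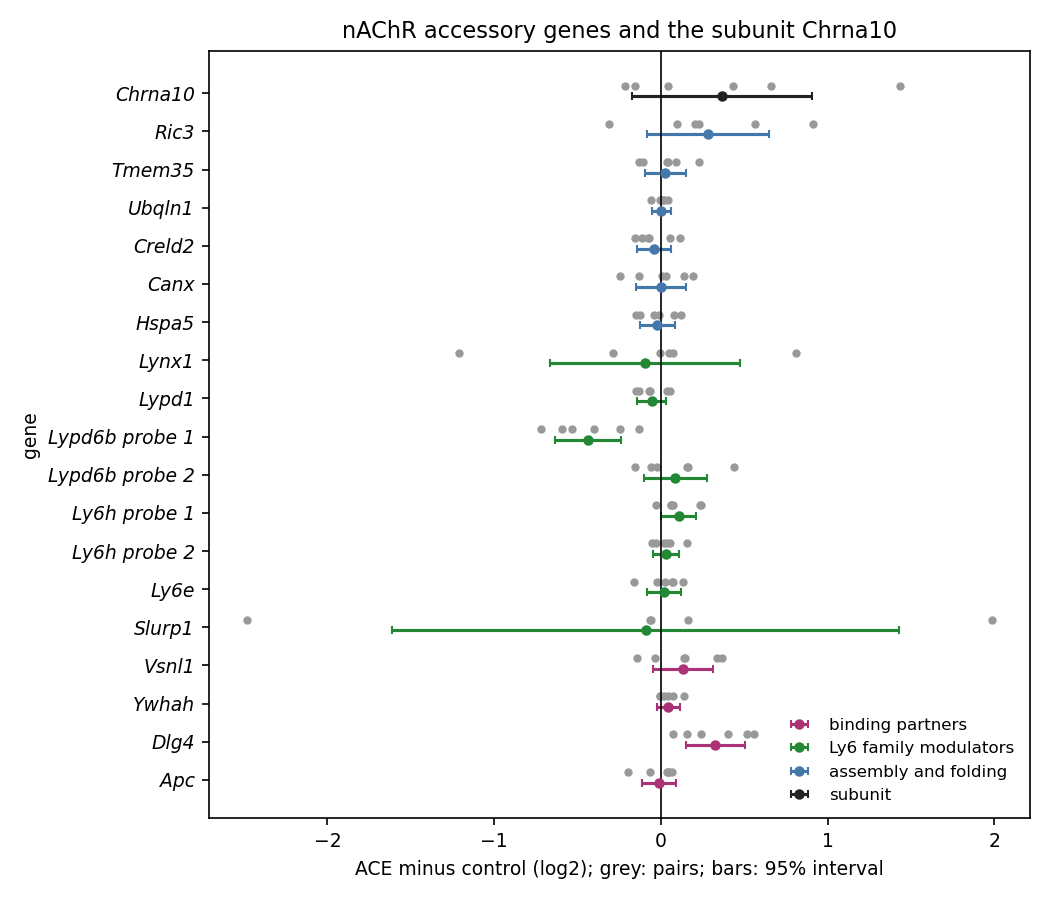
Difference between ACE and control (horizontal axis, log2) for 19 probes, 1 of the subunit Chrna10 and the others of nAChR accessory genes, coloured by role, with grey points for the pairs and bars for the 95% interval of the limma estimate. Dlg4 lies at 0.33 and Lypd6b probe 1 at -0.44 with intervals that do not include 0, while Lypd6b probe 2 lies at 0.09.

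Of the 72 tested marker probes of all cell types examined, 6 were, like Chrnb4, lower in ACE in all 6 pairs (8.33%, beside 6.86% of all tested probes), and 6 were higher in all 6 pairs. Of all 23796 tested probes, 2755 had 1 direction in all 6 pairs. Among these, 1633 were lower in ACE and the rest higher. The lower marker probes were Slc18a3, Chat, the microglial Cx3cr1 and the muscle genes Tnni2, Actc1 and Myog. The higher ones were Prph, Cbln1 and 1 probe each of Slc6a5, Mbp, Aif1 and Csf1r. The study had already listed Tnni2, Actc1 and Myog as lower with acetamiprid from the same arrays. Their part of the 8.33% is therefore no separate evidence. Slc18a3, the vesicular acetylcholine transporter, was lower in ACE in 6 of 6 pairs by -0.18 log2 (adjusted limma p of 0.147), and Chat, the enzyme that makes acetylcholine, in 6 of 6 pairs by -0.31 (adjusted limma p of 0.238), although Chat was above background on 5 arrays. The remaining marker of the list, the choline transporter Slc5a7, was lower in 3 and higher in 3 pairs (pair differences of -5.37 to 3.67), above background on 3 arrays and not tested. Of the 3 cholinergic markers, 1 (Slc18a3) was above background on all 12 arrays, and the mean log2 signal of the 3 was 4.44 to 6.10 in control and 4.16 to 5.76 in ACE, lower in 4 of 6 pairs. Of the 5 markers of peripheral or habenular neurons, where Chrnb4 is abundant, 1 (Tac1) was above background on all 12 arrays and Isl1 was above it on 0. Their mean log2 signal was 3.50 to 4.25 in control and 3.25 to 4.23 in ACE, lower in 5 of 6 pairs. Pou4f1 of this list, which was not tested, was lower in 6 of 6 pairs on signals above background on 3 arrays, and Prph was higher in 6 of 6 pairs.

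The 8 skeletal muscle markers, 6 of them above background on all 12 arrays, had a mean log2 signal of 7.91 to 12.1 in control and 7.82 to 10.8 in ACE. Their mean was lower in ACE in 5 of 6 pairs, with a mean difference of -1.105 log2 and single pairs as far apart as -8.37 (a probe of Myh3). The most negative pair was -7.42 for Mylpf and -3.82 for Tnni2, but -0.50 for Myh8. A mean without such pairs was not computed. The pan-neuronal markers (9.07 to 9.64 in control, 9.20 to 9.74 in ACE) were lower in 1 of 6 pairs, and the astrocyte markers (13.6 to 14.5 in control, 13.5 to 14.4 in ACE) in 6 of 6 pairs, with a mean difference of -0.07 log2. The part of these cells in the Chrnb4 difference was not tested.

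The genes whose signal was most like that of Chrnb4 over the 12 arrays were Wash2 (Pearson's r of 0.896), Gimap1 (0.895) and Btbd6 (0.892), out of 14666 probes with a gene symbol that were well above background on all arrays. These correlations are a description, since the arrays share litters and scans. Gimap1 differed between ACE and control by -0.39 log2 (adjusted limma p of 0.174), Wash2 by -0.09 and Btbd6 by -0.05.

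**Figure D5:**
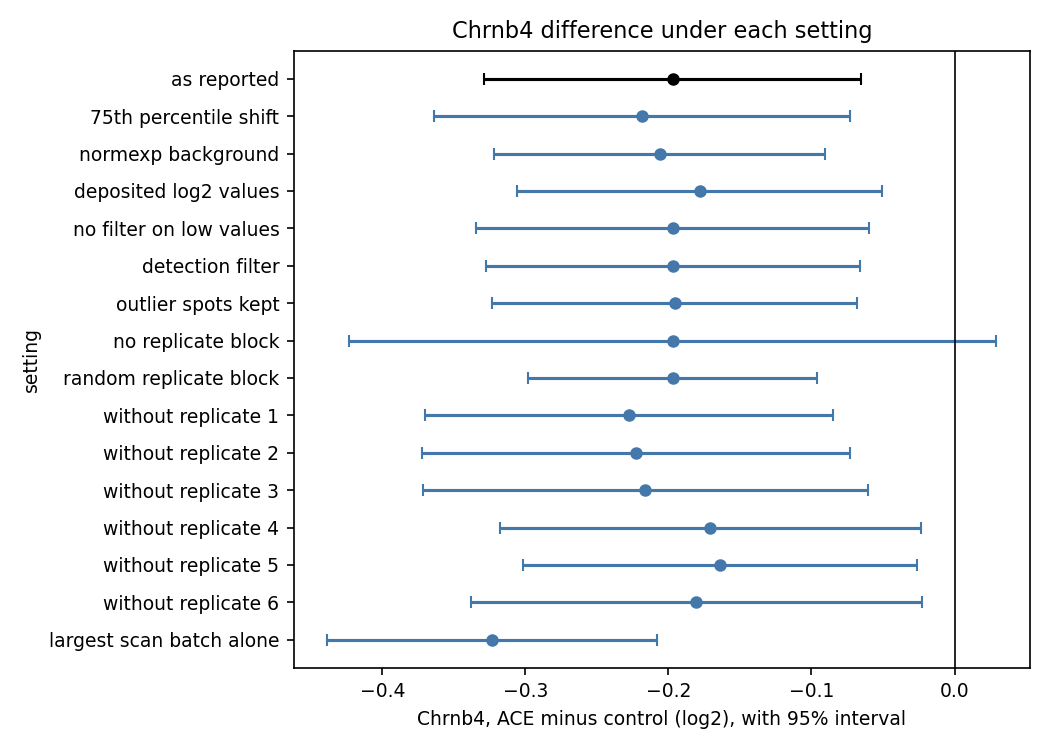
Difference of Chrnb4 between ACE and control (horizontal axis, log2) with its 95% interval as reported and under each alternative processing (vertical axis). The value stays between -0.32 and -0.16, and the interval includes 0 in the fit without the replicate block alone.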

How the data were processed

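The array files held spot intensities. Per the file headers, the authors had read the 2 arrays of replicate 1 with release 11.0.1.1 of Agilent Feature Extraction, which the submitters' processing notes name, and the other 10 with 11.5.1.1. These deposited intensities had their background subtracted and were not scaled between arrays. A second deposited table held log2 values, quantile normalised and centred per probe by the authors. It correlated at 0.997 to 0.999 per array with the centred values computed here and served as an alternative. Its column medians were -0.0201 to 0.0174.

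Control spots were left out and outlier spots set to missing. Processed intensities were put on the log2 scale and quantile normalised, and spots of a probe were averaged. Of 30367 probes, 23796 were above the 20th percentile of their array on at least 7 of 12 arrays with at least 4 complete pairs, and were tested. The 75th percentile of the signal was 1803 to 4384 intensity units, 75.4 to 91.0% of gene spots were well above background, and 0 gene spots were saturated. The number of arrays limits the precision.

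ACE and control were compared by a two-sided moderated test in limma 3.58.1 (R 4.3.3), with the replicate as a block and p-values adjusted after Benjamini-Hochberg over all tested probes. The study's methods give the pairing (1 lot of cells per experiment). Deviations of same-numbered arrays from their group means correlated at 0.434 to 0.909, and those of other-numbered arrays at -0.433 to 0.384. Same-numbered arrays also shared a slide, so litter and slide cannot be told apart in these correlations. The fit was tested on simulated data. Their noise was drawn separately for each probe, so error shared by the probes of an array was not covered. The exact signed-rank test, other scalings, filters and blocks, and leaving out each replicate were alternatives.

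The subunits, accessory genes and markers were chosen with earlier results of these data known. Named are all 10 subunits, Ric3, Tmem35 and Lynx1, each accessory gene with an unadjusted limma p under 0.05, the 3 probes most correlated with each subunit detected on all arrays, and genes of the comparison and marker lists where a result turns on them. All 10 subunit probes matched RefSeq by accession, which was used for names alone. The build rn4 is that of the file headers.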

Additional observations from a re-analysis of the deposited data

Results flagged for a closer look

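In 3 of the 32 groups of 6 arrays examined (subunits and named accessory probes, in control and ACE), 1 array lay far from the other 5. Chance sets apart about 1 in 20 groups. The Chrna2 signal was 2.26 log2 in control replicate 1, against 1.31 to 1.36 on the other 5 control arrays. In ACE, replicate 1 gave 1.95, while the remaining arrays lay between 1.31 and 1.37. Both arrays belong to the replicate with the highest share of spots above background, and Chrna2 was well above background on the control array alone. The Chrnb3 signal was 3.21 in control replicate 5, against 1.61 to 1.93 on the other 5 control arrays, and was not well above background there.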

How the results depend on the processing

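The Chrnb4 difference stayed below 0 and short of the adjusted threshold under all 9 other settings (-0.32 to -0.18, adjusted limma p of 0.116 to 0.9998) and with each replicate left out (-0.23 to -0.16). The count of 0 subunits past the adjusted threshold was the same in every alternative limma run. Over all tested probes the count was also 0 in each limma run but that with a random replicate block, which gave 5. The unchanged count is therefore not specific to the subunits. The exact signed-rank test also gave 0 subunits, but no probe could pass it. Its smallest p with 6 pairs was open only to the 2755 of 23796 probes with 1 direction, too few for the adjusted threshold. Without the replicate block, which gave Chrnb4 an unadjusted limma p of 0.0821, the count of subunits with an unadjusted p under 0.05 fell from 1 to 0, and that of accessory genes from 3 to 0. The accessory count was 2 with the 75th percentile shift, with no filter on low values, and without replicate 1, 3 or 4. The unadjusted limma p of Ly6h, 0.0475 over all pairs, stayed under 0.05 only with replicate 2 left out. In the largest scan batch alone, 2 subunits (Chrnb4 and Chrna7) had 1 direction in all pairs. Detection on at least 6 of 12 arrays held for 4 subunits, and the flag for a positive and significant signal was set on every array for 4 (Chrna4, Chrna5, Chrna7 and Chrnb4).

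The dim subunits changed sign in places. In the largest scan batch alone, Chrna5 differed by 0.036 and Chrna9 by -0.0513, and with the normexp background Chrnb2 differed by 0.0496. The normexp offset shrinks differences of dim probes by construction, and under it the 95% intervals of the 6 dim tested subunits lay between -0.34 and 0.31. With a replicate left out, Chrna3 ranged from -0.31 to 0.53, Chrna4 from -0.00135 to 0.47 and Chrnb2 from -0.34 to 0.12. In alternatives chosen after seeing the data, Lynx1 ranged from -0.28 to 0.13 and Tmem35 from -0.0127 to 0.0585. The cause was not tested. The filter on detection left Chrna3, Chrna9 and Chrnb2 untested. The 75th percentile shift moved the median of all probes to -0.03, against -0.00499.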

Other observations

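The transcripts of Chrng and Chrna1, subunits of the muscle nicotinic receptor, differed widely between cultures. Chrng, the fetal gamma subunit, was 6.05, 7.92 and 10.8 log2 in control (lowest, median, highest) and 5.72, 6.65 and 8.56 in ACE. Chrna1, the muscle alpha subunit, was 8.30, 8.70 and 10.2 in control and 8.12, 8.46 and 9.90 in ACE. The groups overlapped for both. Chrng was lower in ACE in 5 of 6 pairs by -1.18 (adjusted limma p of 0.417) and Chrna1 in 5 of 6 pairs by -0.33 (adjusted limma p of 0.238). Replicate 2 had the most negative pair differences, -4.84 for Chrng and -0.90 for Chrna1. Without it, in an alternative chosen after seeing the data, the differences were -0.45 and -0.22. The mean log2 signal of the 8 skeletal muscle markers was lower in ACE in 5 of 6 pairs, with a mean difference of -1.105. Single pairs weighed on that mean, with the most negative at -8.37 for a probe of Myh3 and at -0.50 for Myh8. The mean without replicate 2 was not computed. Of these markers Tnni2, Actc1 and Myog were lower in 6 of 6 pairs, others were higher in some pairs, and none (0) was past the adjusted limma threshold, with 2 probes at an unadjusted limma p under 0.05. Their part in the values of the muscle subunits was not tested.

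Chrnb1, the muscle beta subunit, was 8.12, 8.29 and 9.44 in control and 8.04, 8.36 and 8.54 in ACE, with a difference of -0.20 (adjusted limma p of 0.540), -0.06 without replicate 2 and -0.31 without replicate 4. Chrnd, the delta subunit, differed by -0.62 (adjusted limma p of 0.499), by -0.28 without replicate 2 and by -1.001 without replicate 5. Chrne, the adult epsilon subunit, differed by -0.12 (adjusted limma p of 0.605), by -0.02 without replicate 2 and by -0.19 without replicate 4. Chrnd was above background on 8 arrays and Chrne on 11.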
